A study of Mus musculus with 19 samples.

Results

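The proteasome is the large protease of the cytosol and nucleus, and its genes were followed here in wild-type mouse hippocampal slices. Members were the rows of both deposited count tables whose symbol begins with Psm, a letter from a to g and a number, without pseudogenes. This rule found 50 of 20436 rows. One of them, Psmc3ip, encodes Hop2, a meiotic recombination protein that is no proteasome subunit, and it was left out of the counts below. The other 49 genes were 19 of the core particle (14 constitutive and 5 tissue-specific subunits), 17 of the regulatory particle (6 ATPases and 11 non-ATPases), and 13 activators, inhibitors and assembly chaperones.

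Proteins tagged with ubiquitin chains are bound and unfolded by the regulatory particle and cut inside the core particle. The core is a stack of outer alpha rings, which gate the entrance, and inner beta rings, in which Psmb5, Psmb6 and Psmb7 carry the chymotrypsin-like, caspase-like and trypsin-like activities. Immune cells replace these with Psmb8, Psmb9 and Psmb10 to form the immunoproteasome. In neurons, proteasome activity is known for its part in the turnover of synaptic proteins and in long-lasting synaptic plasticity, including forms that need new protein synthesis.

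The study asked how mRNA levels and translation respond to mGluR-dependent long-term depression, which dihydroxyphenylglycine (DHPG), an agonist of group 1 metabotropic glutamate receptors, induces in slices. Slices of wild-type male mice aged 28 to 42 days received 100 µM DHPG or the vehicle, artificial cerebrospinal fluid (basal), for 5 min and then 100 µg/ml cycloheximide in the cold, and slices of several animals were pooled in each replicate. RNA-seq libraries (basal, n = 4; DHPG, n = 5) and libraries of ribosome-protected fragments (RPFs; basal, n = 5; DHPG, n = 5) gave 19 libraries, and DHPG RNA replicate 5 had no basal partner. Replicate numbers mark batches of slices. Total counts ranged from 4870813 to 7793244 in RNA libraries and from 5692064 to 22092434 in RPF libraries. A median subunit of the 31 constitutive ones had 564 to 881 reads in an RNA library and 1004 to 3683 in an RPF library. All 5 pyramidal neuron markers and all 3 granule cell markers were detected, with summed RPF levels of 5073 to 6024 CPM (reads scaled to a common library size) and 235 to 301 CPM in basal slices. All 5 astrocyte markers and all 5 oligodendrocyte markers were also detected, with summed basal RPF levels of 1852 to 2204 CPM and 3314 to 7269 CPM. Slices are mixed tissue, so a lower level in fewer cells and a lower level per cell cannot be told apart.

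Levels are given as RPKM, that is, CPM scaled by the trimmed mean of M-values (TMM) and divided by length in kilobases, which was the length of the transcript for RNA and the length of the coding sequence without 30 bases at each end for RPFs. In basal slices core subunits had higher RPF levels than regulatory subunits. The median RPF level of the 14 constitutive core subunits was 277 RPKM and that of the 17 regulatory subunits was 141 RPKM, against 17.4 RPKM over all 13142 genes with a length that passed the filter on low counts. Of the 49 members, 46 passed that filter in RNA and 45 in RPF. The RPF levels of the core subunits ranged from 197 RPKM for Psma7 (alpha4) to 433 RPKM for Psmb1 (beta6, a noncatalytic subunit), and those of the regulatory subunits from 73.2 RPKM for Psmd1 (Rpn2, a large scaffold of the base) to 183 RPKM for Psmc6 (Rpt4, an ATPase). Each of the 14 core subunits was therefore above each of the 17 regulatory subunits in mean RPF level. This separation holds only for genes under the naming rule. Shfm1 (Sem1), a regulatory subunit outside it, had a mean basal RPF level of 279 RPKM, above the core median, and a mean basal RNA level of 9.39 RPKM.

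Psmb1 had RPF levels of 483, 405, 415, 422 and 438 RPKM in basal replicates 1 to 5. Psma7 had 219.7, 178, 192, 181 and 214 RPKM in the same libraries. The lowest library of Psmb1 was far above the highest library of Psma7, so the order of these extremes held in every library. Psmc6 had RPF levels of 194, 192, 188, 171 and 172 RPKM. Psmd1 had 73.7, 76.2, 82.1, 67.2 and 66.8 RPKM. Between the extremes neighbors overlapped: the catalytic subunits Psmb5 (286 ± 32.4 RPKM, SD, n = 5) and Psmb7 (303 ± 25.1 RPKM) differed by less than the SD of either.

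**Figure D1:**
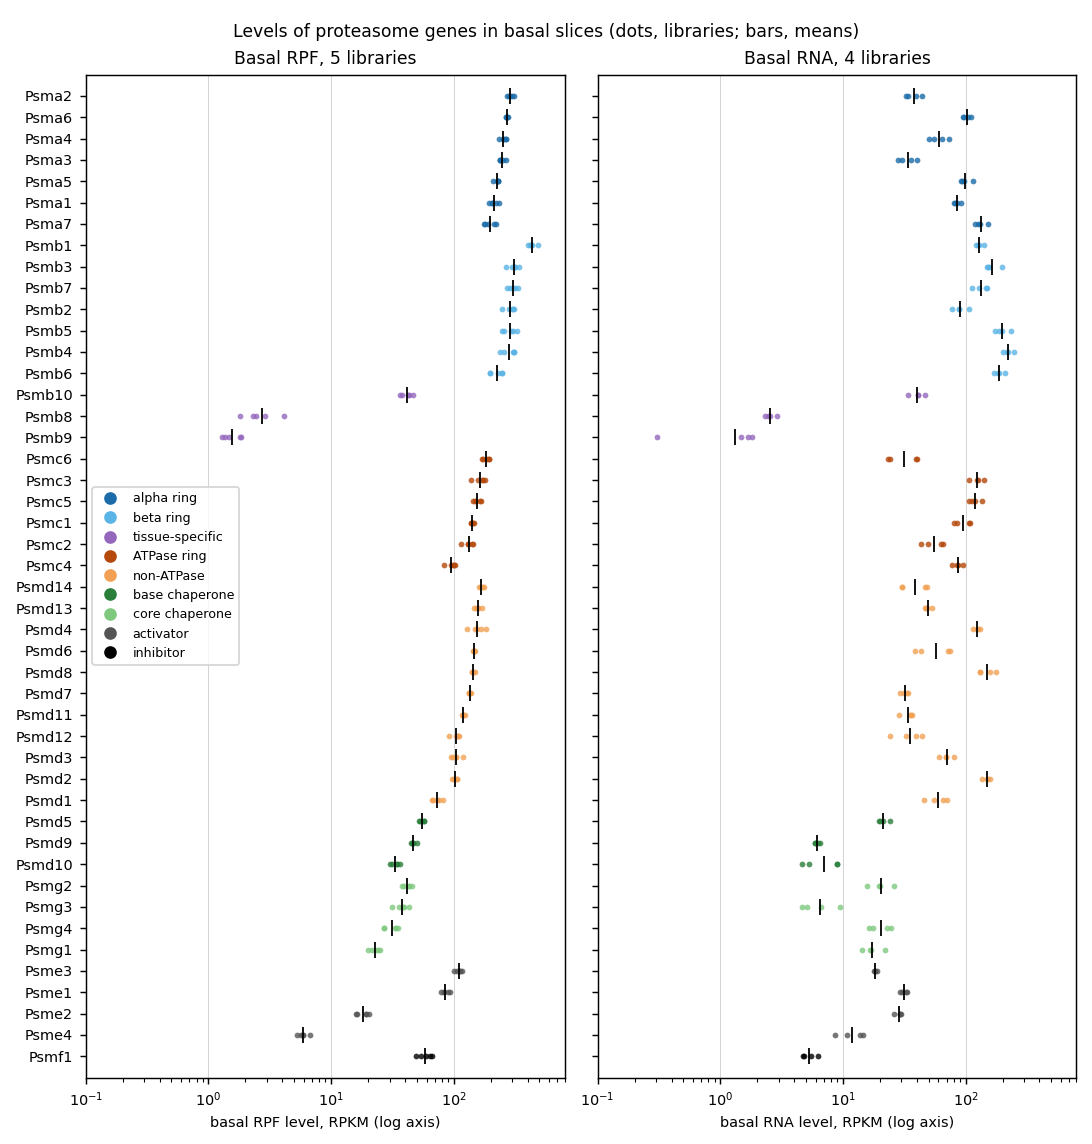
RPF levels (left) and RNA levels (right) of 46 proteasome genes in basal slices, in RPKM on log axes. Dots are libraries and bars are means; colors mark the alpha ring, beta ring, tissue-specific core subunits, ATPase ring, non-ATPases, chaperones, activators and the inhibitor. Core subunits lie in a narrow band from 197 to 433 RPKM in RPF, while the RNA levels of the same genes run from 33.7 to 221 RPKM.

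Subunits of a particle were more alike in RPF level than in RNA level. Over the 14 core subunits the highest mean basal level was 2.20 times the lowest in RPF and 6.57 times the lowest in RNA (33.7 RPKM for Psma3 to 221 RPKM for Psmb4). Over the 17 regulatory subunits these ratios were 2.51 in RPF and 4.72 in RNA (31.7 RPKM for Psmc6 to 149 RPKM for Psmd8). The SD of log2 RPKM across subunits was 0.28 in RPF and 0.84 in RNA for the core, and 0.35 in RPF and 0.81 in RNA for the regulatory particle. Over all genes that passed the filter the order was the other way round, with an SD of 2.45 in RPF and 2.09 in RNA.

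This held in every library. The SD across core subunits was 0.28 to 0.31 in the 10 RPF libraries and 0.73 to 0.97 in the 9 RNA libraries. For the regulatory particle it was 0.32 to 0.38 in RPF and 0.71 to 0.98 in RNA. With the transcript length, the beta ring alone had the smallest gap, 0.23 to 0.34 in RPF against 0.40 to 0.47 in RNA. RNA levels divided by the coding length in place of the transcript length, an alternative chosen after the data were seen, spread less (0.52 for the core and 0.64 for the regulatory particle), and so did core RNA levels with no length scaling (0.54), all above the RPF values. The ring with the smallest gap changed with the length. With the coding length, mean basal levels had an SD of 0.20 in RPF and 0.31 in RNA in the alpha ring. In the beta ring these were 0.28 and 0.46. Across the 31 subunits, basal RNA and RPF levels had a Pearson correlation of 0.34 on the log2 scale and a Spearman correlation of 0.35. Within the core these were 0.13 and 0.17 (14 genes), within the regulatory particle -0.02 and -0.11 (17 genes), and over all 12628 genes with both measures 0.77 and 0.75. These correlations describe genes of the same pooled libraries, which are not independent replicates. They use the transcript length for RNA only. The subunits also cover a far narrower range of RPF levels than all genes (SD of 0.28 and 0.35 against 2.45). A narrow range can by itself lower a correlation, and its part was not tested.

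**Figure D2:**
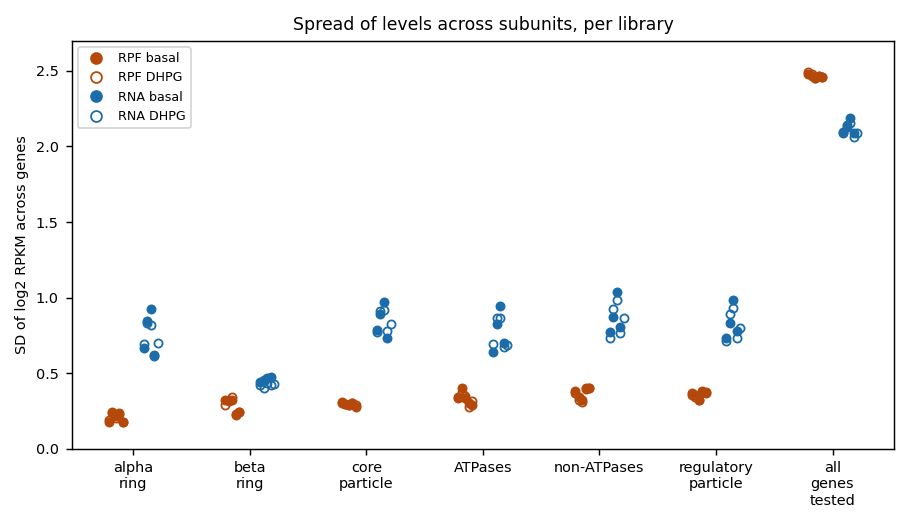
SD of log2 RPKM across the genes of each group, 1 dot per library (filled, basal; open, DHPG; orange, RPF; blue, RNA). In each subunit group all RPF libraries lie under all RNA libraries, while over all genes tested the RPF libraries lie above.

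Reads that fit several places in the genome were not counted by the authors, and the effect of copies of subunit genes on the levels was not tested. For 5 core subunits (Psma3, Psma4, Psma5, Psmb3 and Psmb5) and for Psmd11 of the regulatory particle, 50% or more of the 30-base stretches of the sequence also occur in a transcript of another gene. The 5 core subunits had a median RPF level of 254 RPKM (226 to 307 RPKM) and the other 9 had 284 RPKM (197 to 433 RPKM), so the ranges overlapped. Without these genes, also an alternative chosen after the data were seen, the SD across subunits in RPF was 0.34 for the core and 0.36 for the regulatory particle.

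The ratio of the median core level to the median regulatory level varied little between RPF libraries. It was 1.92 ± 0.06 (SD, n = 5) in basal slices, with 1.94, 1.87, 1.84, 1.95 and 1.996 in replicates 1 to 5. In DHPG-treated slices the RPF ratio was 1.97, 1.96, 1.88, 2.07 and 2.07. In RNA it moved with the batch, with 1.56, 1.96, 2.29 and 1.54 in basal replicates 1 to 4 and 1.66, 2.29, 2.28, 1.39 and 1.81 in DHPG replicates 1 to 5. The groups overlapped in both kinds of library, but within pairs the RPF ratio was higher after DHPG in 5 of 5, by 0.07 ± 0.04 (SD between pairs). An exact two-sided permutation test over the signs of the pairs, made after the values were seen, gave p = 0.0625 for RPF, the smallest p that 5 pairs allow. With all 5 differences above 0 no other p was possible, so this test adds nothing to the count of pairs. In RNA the ratio was higher in 2 of 4 pairs (mean difference 0.07 ± 0.21, exact p = 0.75, where 0.125 is the smallest possible). As read counts with no length scaling the basal RPF ratio was 1.07, since regulatory subunits have longer coding sequences.

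Replicates differed more in RNA than in RPF for most subunits. The median coefficient of variation over basal replicates of the 31 subunits was 11.7% in RNA and 6.99% in RPF, beside 14.8% and 7.39% over all genes of at least 50 CPM. Psmd6 (Rpn7, a lid subunit) was an extreme case. Its basal RNA level was 71.6, 43.1, 38.8 and 74.3 RPKM in replicates 1 to 4. Its basal RPF level was 147, 146, 149, 145 and 147 RPKM in replicates 1 to 5. Replicates 1 and 4 were high and replicates 2 and 3 low in RNA, in DHPG-treated slices as well (62.1, 41.8, 38.7 and 61.0 RPKM, and 54.4 RPKM in replicate 5), while the basal RPF values had a coefficient of variation of 1.04%. After DHPG the RPF level of Psmd6 was 153, 127, 144, 149 and 151 RPKM, with a coefficient of variation of 7.30%, so the near-constant level was seen in basal libraries only. The GC content of the transcript moved with these batches. Over the 31 subunits, the Spearman correlation of GC content with the deviation of a basal RNA library from the mean was -0.63 in replicate 1, 0.39 in replicate 2, 0.68 in replicate 3 and -0.59 in replicate 4, and over 12865 genes it was -0.47, 0.38, 0.67 and -0.60. RPF libraries had values of 0.18, -0.59, -0.46, 0.46 and 0.50 over the 31 subunits. The part of GC content in the batch differences was not tested.

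**Figure D3:**
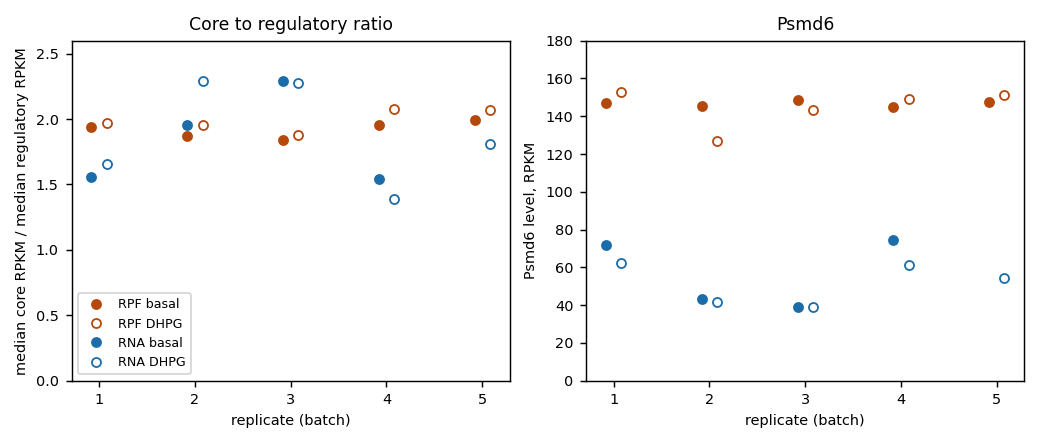
Left, the median core level divided by the median regulatory level in each library; right, the level of Psmd6 in RPKM (orange, RPF; blue, RNA; filled, basal; open, DHPG; the horizontal axis is the replicate, that is, the batch). RPF values stay between 1.84 and 2.07 on the left, while RNA values run from 1.39 to 2.29.

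Sequences before the start sites of the subunit genes are shown because most regulatory subunits with a promoter hold a short motif near the start. The promoters, 250 bases before to 50 after each start, come from RefSeq (GRCm38.p6), and 25 of the 31 subunits had one. The motif CGGAAG, read on both strands and known as the core of sites for Ets-family factors, was found in 13 of 14 regulatory subunits (92.9%), in 4 of 11 core subunits (36.4%) and in 4 of 12 activators, inhibitors and chaperones (33.3%), against 18.8% of all 27025 genes with a promoter and 33.8% of the 9606 of them that passed the filters in RNA and RPF. Psmc5 (Rpt6) was the regulatory subunit without a match. Over the 25 subunit promoters together the share with CGGAAG was 68%. The 5 other motifs searched on both strands were found in these shares of the 25 subunit promoters and of the 9606 promoters of tested genes: GGGCGG in 60.0% and 70.4%, CCAAT in 40.0% and 42.9%, TGACNNNGC (the antioxidant response element, read by Nfe2l1 and Nfe2l2) in 16.0% and 17.0%, CACGTG in 4.00% and 11.9%, and TATAAA in 12.0% and 8.48%. Split by particle, GGGCGG was in 71.4% of regulatory and 45.5% of core promoters, and CCAAT in 28.6% and 54.5%. In the same order TGACNNNGC was in 14.3% and 18.2%, CACGTG in 0% and 9.09%, and TATAAA in 14.3% and 9.09%. CGGAAG and TGACNNNGC do not overlap by their letters, and matches are descriptions of letters, not of bound sites.

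The windows below hold CGGAAG in capitals, or CTTCCG where the motif reads on the opposite strand, with 10 bases on each side. Each lies upstream of the gene in both RefSeq and GENCODE, outside exons of that gene, and is written on the strand of the gene.
Psmc6, an ATPase, chr14:45329715-45329740, plus strand: gcgggccagcCGGAAGgggcggagcc
Psmc1, an ATPase, chr12:100110092-100110117, plus strand: tcccgataggCTTCCGtagcctgttt
Psmd14, the deubiquitinase of the lid, chr2:61711570-61711595, plus strand: gctcgcctgaCTTCCGcctcgcgggg
Psmd4, a ubiquitin receptor, chr3:95042723-95042748, minus strand: acagctgttcCGGAAGctgctgcgaa
Psmd2, a scaffold of the base, chr16:20651616-20651641, plus strand: ccgcagggcgCTTCCGgtctggagga
Psma4, an alpha ring subunit, chr9:54950747-54950772, plus strand: actgggagaaCTTCCGcgtcctcccg
Psmb3, a beta ring subunit, chr11:97703241-97703266, plus strand: accgtaggctCTTCCGcactcacagt
In the regulatory subunits with a match upstream of the start and at least 10 bases from the window's edge (12 genes, 16 matches), the motif began 11 to 124 bases before the start. In core subunits (3 genes, 4 matches) it began 24 to 183 bases before the start.

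Of the tissue-specific core subunits, Psmb10 (beta2i) had the highest level and Psmb8 (beta5i) and Psmb9 (beta1i) were far lower. Psma8 (testis-specific alpha4s) and Psmb11 (thymus-specific beta5t) had at most 3 and 6 reads in any library and were not tested. Psmb10 had basal RPF levels of 43.1, 36.4, 37.7, 46.6 and 42.5 RPKM, and its constitutive counterpart Psmb7 had 336, 289, 269.7, 305 and 314 RPKM. Psmb10 was therefore translated at 13.6 ± 1.05% of Psmb7 (SD, n = 5). In RNA it was at 30.6 ± 6.60% (n = 4), with 34.0, 40.5, 46.3 and 40.7 RPKM against 149, 112, 129 and 148 RPKM.

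Psmb8 had basal RPF levels of 1.82, 2.30, 2.42, 2.89 and 4.14 RPKM (9 to 41 reads) and Psmb5 had 292, 249, 258, 305 and 326 RPKM. Psmb8 was thus at 0.94 ± 0.23% of Psmb5 in RPF and at 1.30 ± 0.18% in RNA, where it had 2.31, 2.91, 2.56 and 2.43 RPKM against 188, 197, 236 and 173 RPKM. Psmb9 had basal RPF levels of 1.30, 1.84, 1.82, 1.37 and 1.47 RPKM (5 to 24 reads) and basal RNA levels of 1.81, 0.305, 1.48 and 1.67 RPKM (2 to 16 reads). Psmb6 had 229, 198, 198, 246 and 249 RPKM in RPF and 185, 186, 210.1 and 171 RPKM in RNA. Psmb9 was at 0.71 ± 0.19% of Psmb6 in RPF and at 0.71 ± 0.38% in RNA. These percentages rest on few reads. Exons of Psmb9 overlap the span of the gene Tap1, and overlap with its exons was not looked at. Spans of other genes are also overlapped by exons of Psmb7 (Nek6), Psma4 (AY074887), Psmc3 (Slc39a13), Psmd13 (Sirt3) and Psme1 (Emc9). The part of reads from these neighbors in the levels was not tested. All 6 microglia markers, which mark the resident immune cells, were detected, with summed basal levels of 336 to 508 CPM in RNA and 233 to 356 CPM in RPF; the part of microglia in the levels of the immune subunits was not tested.

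Activators, the inhibitor and chaperones had mean RPF levels below each constitutive core subunit. Psme3 (PA28 gamma, the nuclear activator) was the highest of them, above some regulatory subunits, with basal RPF levels of 101, 113, 118, 112 and 106 RPKM. Psme4 (PA200, a large nuclear activator) was the lowest of those that passed the filter, with 5.90, 5.87, 6.79, 5.23 and 5.73 RPKM. Psme1 (PA28 alpha) was at 85.6 ± 5.47 RPKM (SD, n = 5) and its partner Psme2 (PA28 beta) at 18.3 ± 1.97 RPKM, but 77.1% of the 30-base stretches of Psme2 also occur in its copy Psme2b, and their part in its level was not tested; Psme2b itself had at most 5 reads in a library. The inhibitor Psmf1 (PI31) was at 58.8 ± 7.39 RPKM. The base chaperones Psmd5, Psmd9 and Psmd10 had 54.7, 46.7 and 33.4 RPKM, and the core chaperones Psmg1 to Psmg4 had 22.7, 41.9, 37.9 and 31.3 RPKM. Pomp, a further core assembly factor outside the naming rule, had 449 ± 22.3 RPKM, which differed from Psmb1 (433 ± 30.5 RPKM) by less than the SD of either.

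The basal RPF to RNA ratio, an estimate of translation efficiency, was tested over 12628 genes against a difference of 1.5-fold from the median gene. At an adjusted p under 0.05 (edgeR, Benjamini-Hochberg), 15 of 45 members tested were higher and 6 were lower, against 29.1% and 27.6% of all genes. Of the 31 constitutive subunits, 10 were higher and 2 lower. These shares are close to the background for the higher calls and below it for the lower ones. The median of the 31 subunits was 0.33 on the log2 scale, and the median of all genes was 0.00. The median depends on the length given to the RNA: with the coding length for both kinds of library the median was 0.69, with no length it was 0.61, and 10 of the 31 subunits changed the sign of their ratio between these choices and the main one. Of the 31 subunits 8 were called in the same direction under all 3 choices, all of them higher. No share over all genes is given here for calls under all 3 choices, so these 8 have no background. With the coding length 14 of the 31 were called in either direction, against 5315 of 12628 genes. With no length 12 were called, against 5115 genes.

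Among core subunits, Psma2 (alpha2) had the highest ratio with the transcript length, with a log2 ratio of 2.09 ± 0.12 (SE; adjusted p = 2.68e-06) and replicate values of 2.12, 2.13, 2.24 and 1.82. Its RNA level was 39.7, 34.2, 32.8 and 44.5 RPKM and its RPF level 312, 270.4, 288, 284 and 297 RPKM. Psma3 (alpha7) followed at 2.05 ± 0.14, with 1.95, 2.38, 2.10 and 1.72. Their annotated transcripts are 2911 and 2846 bases long, for coding sequences of 702 and 765 bases, and with the coding length for both kinds of library their ratios were 0.99 and 1.10, still called. Psma4 (alpha3) was at 1.201 ± 0.12 (replicates at 0.99, 1.35, 1.30 and 1.13), Psmb2 (beta4) at 0.81 ± 0.13 (0.98, 0.63, 0.51 and 1.10) and Psmb1 at 0.88 ± 0.11 (1.05, 0.84, 0.65 and 0.94). With the coding length Psma4 (1.58) and Psmb2 (1.25) were above Psma3 and Psma2, so the order within the core depends on the length. Psma4 and Psmb2 were called under all 3 lengths, and Psmb1 was not (0.54 with the coding length). The lowest core ratio among genes tested was that of Psmb8, at -0.96 ± 0.21 (-1.2, -1.19, -0.97 and -0.60), and Psmb10 was at -0.84 ± 0.14 (-0.51, -1.01, -1.19 and -0.66), not called with the coding length (-0.57).

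Among regulatory subunits, Psmc6 had the highest ratio, 1.74 ± 0.18 (adjusted p = 0.000125), with replicate values of 1.45, 2.13, 2.13 and 1.24. Its RNA level was 39.2, 24.3, 23.1 and 40.1 RPKM, lower in replicates 2 and 3, where its ratio was higher. Psmd14 (Rpn11, the deubiquitinase) was at 1.30 ± 0.17 (1.03, 1.59, 1.65 and 0.89). Psmd7 (Rpn8, its partner) was at 1.21 ± 0.11 (1.12, 1.13, 1.21 and 1.33), and Psmd13 (Rpn9, of the lid) at 0.82 ± 0.11 (1.01, 0.84, 0.63 and 0.78). These 4 genes were called under all 3 lengths. Psmd11 (Rpn6) was at 0.96 ± 0.12 (0.96, 0.87, 1.15 and 0.84) and at 0.75 with the coding length, where it was not called.

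The lowest regulatory ratio was that of Psmd2 (Rpn1, which binds ubiquitin shuttles), at -1.39 ± 0.10 (adjusted p = 2.95e-05; -1.42, -1.30, -1.40 and -1.49). It had RNA levels of 157, 136, 150.5 and 151 RPKM and RPF levels of 106, 99.9, 106, 97.5 and 103 RPKM. Psmd8 (Rpn12) was at -0.90 ± 0.12 (-0.68, -0.98, -1.24 and -0.74). Neither was called with the coding length, where their ratios were -0.56 and -0.49. For Psmd2, 47.0% of the 30-base stretches also occur in other genes, and the part of uncounted reads in its ratio was not tested.

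Among activators, the inhibitor and chaperones, Psmf1 had the highest ratio with the transcript length, 2.57 ± 0.15 (adjusted p = 1.63e-06; 2.93, 2.52, 2.22 and 2.59), with RNA levels of 4.85, 4.76, 6.20 and 5.52 RPKM over a transcript of 3809 bases. Psmd9 was at 2.07 ± 0.13 (2.12, 2.25, 1.89 and 2.01), Psme3 at 1.74 ± 0.11 (1.62, 1.76, 1.74 and 1.80), Psmg3 at 1.66 ± 0.20 (1.58, 1.77, 1.15 and 2.25) and Psmd10 at 1.43 ± 0.20 (0.91, 1.83, 1.87 and 1.17). Psme4 was the lowest, at -1.82 ± 0.19 (adjusted p = 0.000101; -2.17, -1.73, -1.22 and -2.24), with RNA levels of 14.6, 10.8, 8.54 and 13.7 RPKM. Psme2 was at -1.54 ± 0.13 (-1.55, -1.73, -1.501 and -1.45). These 7 genes were called in the same direction under all 3 lengths, but the order changed: with the coding length Psmf1 was at 1.29, Psmd9 at 1.06, Psme3 at 0.89, Psmg3 at 1.34 and Psmd10 at 1.34, and Psmc6 (1.76) was the highest of all members. Psme4 was the lowest with the transcript and the coding length (-1.10). The choice of length does not address the stretches that Psme2 shares with Psme2b, and their part in its ratio was not tested.

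**Figure D4:**
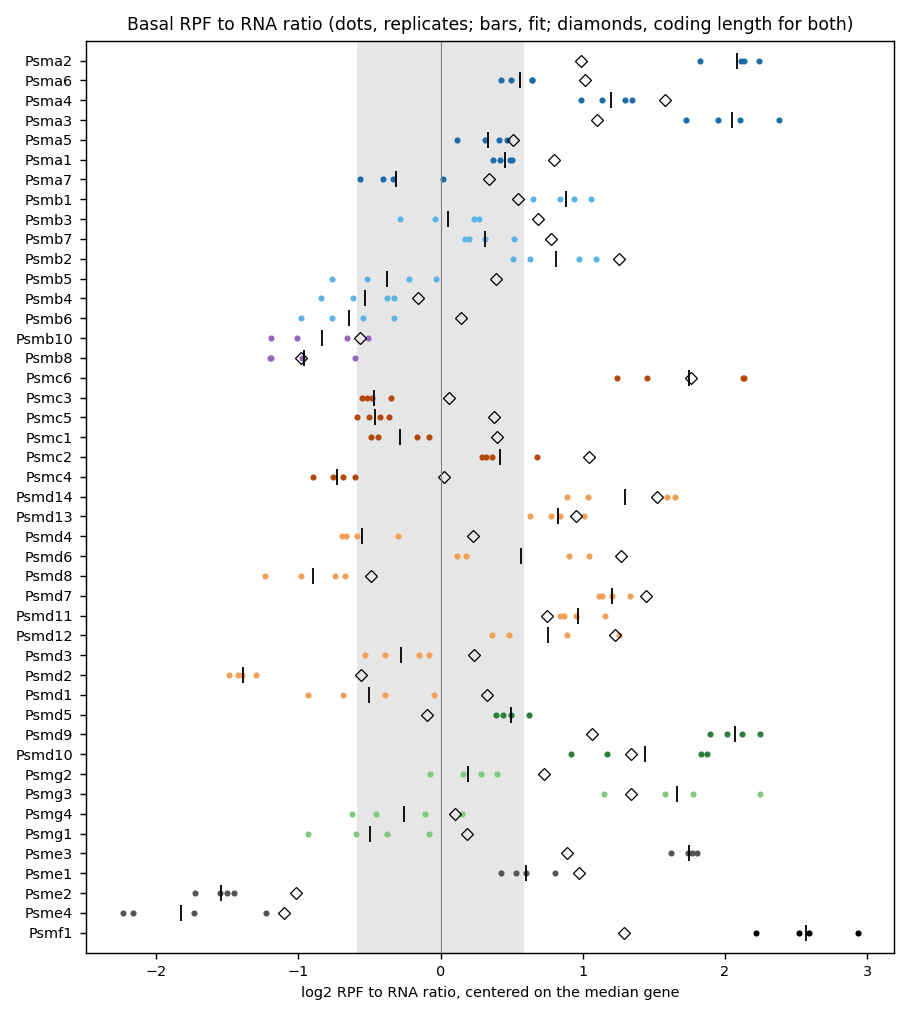
Basal log2 RPF to RNA ratio of 45 members, centered on the median gene. Dots are the 4 replicates, bars the fitted value, diamonds the value with the coding length for both kinds of library, and the gray band marks 1.5-fold on both sides of the median; Psmf1 is at 2.57 and Psme4 at -1.82, and for 10 of the 31 subunits the choice of length changes the sign.

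Other genes of the pathway, from a list of 33 of which 32 were in the tables, were called in the basal RPF to RNA ratio as follows: 14 of 32 were higher and 8 lower, against 29.1% and 27.6% of all genes, so the lower calls were near the background. The regulatory subunit Shfm1 (Sem1) was at 4.04 ± 0.16 with the transcript length and at 2.18 with the coding length. Pomp was at 2.79, the deubiquitinase Usp14 at 2.35 and the deubiquitinase Uchl5 at 1.75. Nfe2l1, the transcription factor that drives proteasome genes, was at -1.42 ± 0.10, and -0.55 with the coding length, where it was not called. The ubiquitin receptor Adrm1 was at -0.12 ± 0.13 and was not called. The other genes called higher were Zfand5 (4.57), Ufd1l (2.08), Akirin2 (2.03), Rad23b (1.95), Ube3a (1.88), Txnl1 (1.74), Ubqln2 (1.47), Uba6 (1.28), Zfand2a (1.17) and Fbxo7 (1.13). Those called lower included Ube3c (-1.94), AI314180 (Ecpas, -1.16), Ipo9 (-0.85), Nploc4 (-0.83) and Ubqln4 (-0.77). With the coding length Zfand5 was at 1.99, Zfand2a changed sign (-0.51), and Ube3a (0.92), Fbxo7 (0.30), AI314180 (-0.56) and Ubqln4 (-0.71) were not called.

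DHPG changed no member past the threshold in RNA, RPF or their ratio. The RNA test called 0 of 46 members at an adjusted p under 0.01 (edgeR with the replicate as a block), against 1 of 12935 genes (0.00773%). Without adjustment, 7 of the 46 (Psma4, Psma6, Psma7, Psmb1, Psmb5, Psmb9 and Psmd5) had a p under 0.05, all with a fold change below 0, against 2.81% of all genes. The fit with DESeq2 and the block called 0 members and 0 genes over all, with 3 members at an unadjusted p under 0.05. ComBat followed by DESeq2 called 0 members and 2 genes over all. It had 14 members at an unadjusted p under 0.05, all below 0 (smallest adjusted p = 0.0483 by DESeq2). For these 2 fits the share of all genes at an unadjusted p under 0.05 is not given, so the 3 and 14 have no background. In RPF 0 of 45 members were called at an adjusted p under 0.05, against 0.22% of 13208 genes, and 2 (Psmc3 and Psme3) had a fold change below 0 with an unadjusted p under 0.05, against 4.21% of all genes; both fits with DESeq2 called 0, with 0 at an unadjusted p under 0.05. The RPF to RNA ratio called 0 of 45, against 0% of 12691 genes. At an unadjusted p under 0.05, 5 members were above 0 and none below, against 3.08% of all genes above 0. Limma on the difference of log2 CPM called 0 members and 0 genes over all. It had 4 members at an unadjusted p under 0.05, again without a background share.

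Most subunits had RNA fold changes slightly below 0 after DHPG, without a call for any. The log2 fold change was below 0 for 27 of the 31 constitutive subunits in RNA, with a median of -0.10, against 47.9% of all genes below 0 and a median of 0.01. In RPF 26 of the 31 were below 0, but the median was only -0.02, against 48.6% and 0.00 over all genes. The 31 subunits share their libraries and are not independent. The median over the 31 subunits was -0.11, 0.05, -0.16 and -0.20 in RNA pairs 1 to 4, so pair 2 went the other way. In RPF it was -0.04, -0.06, -0.03, 0.03 and 0.01 in pairs 1 to 5, so pairs 4 and 5 were above 0. The SD between pairs (0.11 in RNA and 0.04 in RPF) was larger than the medians of the fit.

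The core had a median of -0.12 in RNA, with 13 of 14 subunits below 0, and the regulatory particle -0.07, with 14 of 17. Fitted log2 fold changes plus and minus 2 SE ran from -0.40 (Psma4) to 0.20 (Psmd12) over the 31 subunits in RNA and from -0.14 (Psmc3) to 0.08 (Psmd7) in RPF, that is, from -9.34% to 5.99% in RPF. The RNA intervals were wider. The median change of the RPF to RNA ratio was 0.08, with 27 of 31 subunits above 0, but this ratio shares the RNA libraries with the RNA comparison, and the pair medians were 0.06, -0.10, 0.11 and 0.22.

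**Figure D5:**
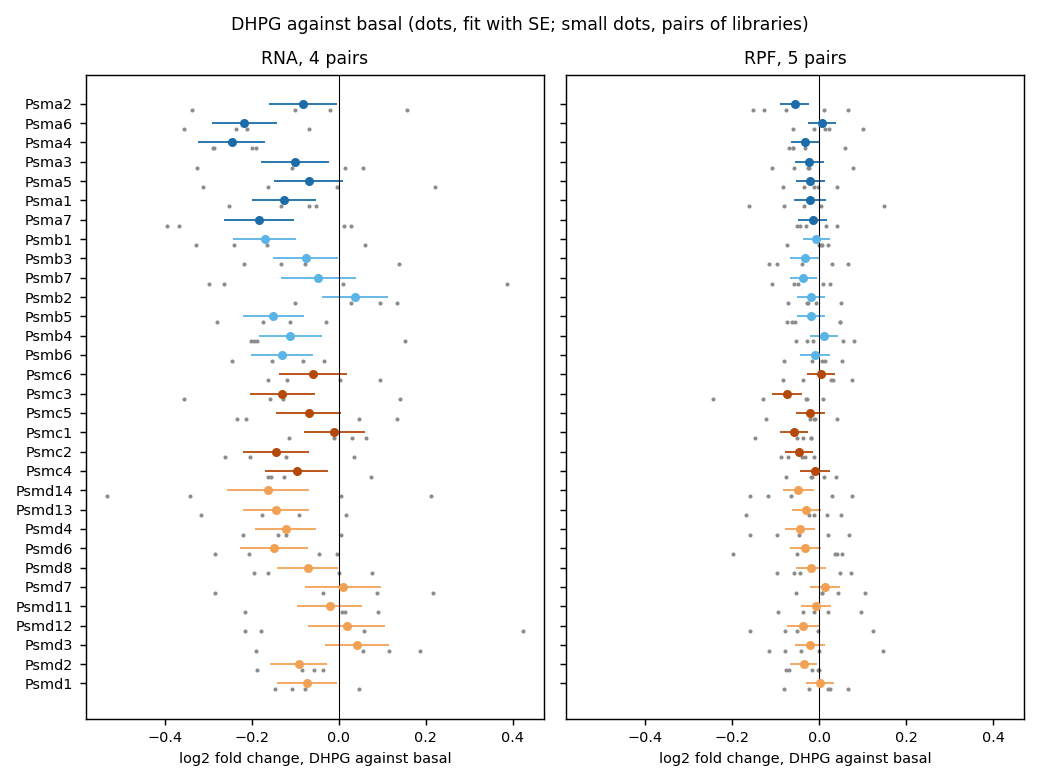
Log2 fold change of the 31 constitutive subunits, DHPG against basal, in RNA (left) and RPF (right). Large dots with bars are the fitted values with their SE, and small dots are the single pairs of libraries; in RNA 27 and in RPF 26 of 31 fitted values lie below 0, on a scale where RPF values stay between -0.07 and 0.01.

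The smallest p-values in RNA were those of the alpha ring subunits Psma4 and Psma6. Psma4 had RNA levels of 73.6, 50.6, 54.9 and 64.6 RPKM in basal replicates 1 to 4 and 60.3, 44.0, 48.0, 53.0 and 56.4 RPKM in DHPG replicates 1 to 5. It was lower in 4 of 4 pairs, which was so for 7 of the 31 subunits and 6.97% of all genes. Its log2 fold change was -0.25 ± 0.08 (adjusted p = 0.536 by edgeR), and the groups overlapped. Psma6 had RNA levels of 96.1, 104, 111 and 95.7 RPKM in basal and 91.7, 90.2, 94.0, 74.7 and 82.1 RPKM in DHPG-treated slices. Here every DHPG library was under every basal library, which was so for 1 of 46 members and for 0.302% of all genes (0.209% were over, with 0 members), with a log2 fold change of -0.22 ± 0.07 (adjusted p = 0.54).

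The RPF levels of these genes differed less between conditions. Psma4 had 265, 232, 251, 255 and 267 RPKM in basal and 252, 223, 245, 266 and 256 RPKM in DHPG-treated slices, a log2 fold change of -0.03 ± 0.03. Psma6 had 272, 265, 276, 269 and 273 RPKM in basal and 292, 254, 273, 271 and 277 RPKM in DHPG-treated slices, a log2 fold change of 0.01 ± 0.03. They were also the members with the smallest p in the change of the RPF to RNA ratio, at 0.21 ± 0.07 for Psma4 and 0.23 ± 0.07 for Psma6 (adjusted p = 0.657 for both), which rests on the same RNA libraries.

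In RPF the smallest p-values were those of Psme3 and of the ATPase Psmc3 (Rpt5). Psme3 had RPF levels of 96.6, 106, 122, 95.2 and 91.9 RPKM after DHPG, beside the basal values above, with a log2 fold change of -0.10 ± 0.04 (lower in 4 of 5 pairs, adjusted p = 0.388). Psmc3 had 174, 139, 159, 179 and 171 RPKM in basal and 147, 136, 156, 164 and 172 RPKM in DHPG-treated slices, with a log2 fold change of -0.07 ± 0.03 (lower in 4 of 5 pairs, adjusted p = 0.415). Both pairs of groups overlapped, and 0 of 45 members tested had all DHPG libraries under (0.235% of all genes) or over (0.159%) all basal libraries.

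No catalytic subunit was called after DHPG. The RNA levels of Psmb5 and Psmb6 were lower in 4 of 4 pairs. This was so for 7 of the 31 subunits (22.6%) and 6.97% of all genes, while 0 subunits and 8.67% of genes were higher in every pair. Psmb5 had RPF levels of 281, 257, 245, 316 and 313 RPKM after DHPG, a log2 fold change of -0.02 ± 0.03, and RNA levels of 174, 193, 194, 153 and 178 RPKM, a log2 fold change of -0.15 ± 0.07 (edgeR, unadjusted p = 0.0403, adjusted p = 0.608). Psmb6 had 237, 195, 187, 248 and 251 RPKM in RPF and 166, 182, 177, 162 and 202 RPKM in RNA, with log2 fold changes of -0.01 ± 0.03 and -0.13 ± 0.07. Psmb7 had 323, 268, 261, 307 and 320.0 RPKM in RPF and 150.4, 146, 104, 123 and 121 RPKM in RNA, with -0.04 ± 0.03 and -0.05 ± 0.09. The RPF to RNA ratios of Psmb5 and Psmb6, which use the same RNA libraries, were higher in 4 of 4 pairs (0.13 ± 0.07 and 0.12 ± 0.07, not called). A ratio higher in every pair was found for 4 of the 31 subunits and 6.57% of all genes. All 3 genes overlapped between conditions in both kinds of library.

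Psmb8 had RPF levels of 2.55, 3.06, 2.52, 4.29 and 2.62 RPKM and RNA levels of 1.82, 3.29, 2.62, 1.81 and 2.48 RPKM after DHPG, with log2 fold changes of 0.11 ± 0.19 and -0.13 ± 0.22. Psmb10 had 46.0, 32.9, 31.3, 43.8 and 42.7 RPKM in RPF and 32.9, 44.6, 45.3, 34.8 and 45.1 RPKM in RNA, with -0.10 ± 0.06 and -0.05 ± 0.08. Psmb9 stood apart by its few reads: its RPF level after DHPG was 0.895, 1.01, 1.11, 0.631 and 1.26 RPKM, under every basal library, but it did not pass the filter in RPF. Without the filter its log2 fold change in RPF was -0.67 ± 0.34 (unadjusted p = 0.0451 and adjusted p = 0.515 by edgeR). In RNA, where Psmb9 passed the filter, DHPG-treated slices had 0.668, 0.915, 0.757, 0.728 and 1.37 RPKM. The main RNA fit, with the filter, gave -0.87 ± 0.38 (adjusted p = 0.588 by edgeR). RNA pair 2 went the other way, at 1.38 on the log2 scale, with 2 reads in its basal library. Summed microglia markers were 282 to 373 CPM in RPF after DHPG, beside the basal range above.

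Other genes of the pathway had 0 of 32 calls in each of the RNA, RPF and ratio comparisons (edgeR), while an unadjusted p under 0.05 was reached by 3 in RNA (2 of them below 0), 1 in RPF (below 0) and 5 in the ratio (3 below 0). These were 9.38%, 3.12% and 15.6% of the 32, against 8.02%, 10.8% and 6.69% of all genes. In RNA 17 and in RPF 25 of the 32 were below 0, with medians of -0.02 in both. Usp14 had a log2 fold change of -0.20 ± 0.07 in RNA (adjusted p = 0.545 by edgeR) and -0.03 ± 0.03 in RPF. Its RNA was lower in 4 of 4 pairs, as was that of 6.97% of all genes. Pomp had -0.15 ± 0.10 in RNA and 0.05 ± 0.03 in RPF, and Shfm1 -0.18 ± 0.14 and 0.05 ± 0.05. Nfe2l1 had 0.11 ± 0.07 in RNA and 0.02 ± 0.03 in RPF, Adrm1 0.00 ± 0.08 and -0.02 ± 0.04, and Uchl5 -0.06 ± 0.12 and 0.01 ± 0.04.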

How the data were processed

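RSEM expected counts, which the authors deposited as whole numbers without normalization, were read from a table for RNA and another for RPFs. Per the labels, cutadapt, Bowtie2, TopHat2 and RSEM were used with mm10; the study counted uniquely mapped reads with collapsed molecular identifiers, and RPFs on coding sequences without 30 bases at each end. Columns of replicates 6 to 8 (12 columns) belong to no sample given here and were not used. Counts were analyzed with edgeR 4.0.16 (quasi-likelihood F test, TMM, filterByExpr, Benjamini-Hochberg over all genes tested), with replicate as a block, in R 4.3.3. Thresholds were an adjusted p of 0.01 for RNA and 0.05 for RPF, as in the study, and 0.05 for ratios. The RPF to RNA ratio was an interaction term over 19 libraries; the basal ratio used edgeR's test against a fold of 1.5, with length in the offset. DHPG RNA replicate 5, without a partner, adds nothing to blocked differences. Same-numbered basal and DHPG libraries deviated together (correlations of 0.26 to 0.72). Libraries of different numbers were not compared, so these values cannot show that the numbers pair them. Where labels do not say that replicates are separate animals, p-values measure the spread between these pools only. DESeq2 1.42.0, sva 3.50.0 (ComBat) and limma 3.58.1 served as alternatives. Lengths and gene positions came from GENCODE vM21, and 30-base stretches were matched to its transcripts. The tests were run on simulated counts with planted changes. Values were printed for catalytic subunits, for the members highest and lowest in RPF level and basal ratio, for called members and for the 2 smallest p-values per comparison. Some called genes of the pathway list are not reported here. The members and gene lists were chosen with earlier results of these data known. The intervals of plus and minus 2 SE come from the edgeR fits and cover the spread between the pooled replicates only.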

Additional observations from a re-analysis of the deposited data

Results flagged for a closer look

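In 3 of 110 groups of 4 or 5 libraries of the named genes, 1 library stood apart from the others by Dixon's test at the 95% level, where chance alone gives about 5.5. Psmd1 was at 83.5 RPKM in DHPG RPF replicate 3, with the other 4 libraries at 68.1 to 72.5 RPKM. Psmd11 was at 28.9 RPKM in basal RNA replicate 3, with the others at 35.2 to 36.3 RPKM. Psme2 was at 26.0 RPKM in basal RNA replicate 1, with the others at 29.4 to 29.8 RPKM.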

How the results depend on the processing

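Counts of members called for DHPG were 0 in RNA, RPF and ratio under every alternative run, namely an adjusted p of 0.05 (RNA) or 0.01 (RPF), other size factors, 2 other filters, DESeq2 and ComBat (RNA and RPF), limma (ratio), no replicate block and each replicate left out. The threshold was not changed together with the fit. ComBat followed by DESeq2 had a smallest adjusted p of 0.0483 among members in RNA, which would pass 0.05. The median RNA change of the 31 subunits was -0.10 (-0.15 to -0.08 with 1 replicate left out; -0.07 with no replicate block, where pairing was ignored); that in RPF was -0.02 (-0.04 to -0.01; -0.02 without the block) and that of the ratio 0.08 (0.04 to 0.12; 0.04 without the block). The 21 basal ratio calls became 18 to 22 with 1 replicate left out, 21 without the block and 40 with no minimum fold. No share of all genes is given here for these settings, so these counts have no background. The median basal ratio of 0.33 became 0.61 with no length and 0.69 with the coding length.

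The SD over subunits in RPF was 0.33 for the core with the median length over transcripts, 0.34 without subunits with shared stretches, and 0.31 for the regulatory particle with no length. In RNA it was 0.54 (no length) and 0.52 (coding length) for the core and 0.64 (coding length) for the regulatory particle. The core to regulatory ratio with no length was 1.07 in RPF and 0.98 in RNA, and 2.03 in RPF with the median length. Psmb8 was at 0.78% of Psmb5 in RPF and at 1.09% in RNA with the median length, and at 2.33% in RNA with no length; Psmb9 was at 1.19% of Psmb6 in RNA with no length.

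Uncalled log2 changes that turned sign with a setting were those of Psmb10 in RNA (0.0032 with no replicate block; -0.102 to 0.013 with 1 replicate left out) and ratio (-0.113 to 0.0122), Psmb7 in RNA (-0.181 to 0.0352) and ratio (-0.0102 with limma; -0.0686 to 0.158), Psmb6 in RPF (-0.0222 to 0.011) and Psmb8 in RPF (-0.00383 to 0.33). Causes were not tested. Lengths of annotated untranslated regions limit the basal ratio, and reads under 50 limit Psmb8 and Psmb9.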
